A study of Mus musculus with 2 samples.

Results

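The 37 forkhead factor genes described here are listed members of the Fox family of transcription factors, out of 21938 protein-coding genes on chromosomes 1 to 19, X and Y. All 37 were found by symbol in GENCODE M21 and fall into 18 subclasses named by letter, from FoxA to FoxS. Other forkhead genes were not analysed here. For each gene, open-chromatin peaks and the wider open intervals called hotspots were taken within 500 bp of every annotated transcription start site (TSS), and in a domain that runs from 10 kb before the gene to 10 kb past it. A union region is a run of overlapping or touching peaks of either library. It is called shared when it holds a peak of each library. A member has a shared promoter region when such a region comes within 500 bp of one of its TSSs.

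The data are DNase-seq profiles, in which DNase I cuts exposed DNA in nuclei and the released ends mark open regulatory sites. They come from midbrain of newborn mice of the B6NCrl strain (age 0 days, postnatal, healthy, male and female animals pooled). There is 1 group of 2 biological replicates, with no treatment, transgene or mutant allele in the labels. Both biosamples trace to 1 pooled donor entry, so the spread between them may be technical. The tissue is whole midbrain, so a site open in few cells and a site weakly open in many cells cannot be told apart.

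Forkhead proteins bind DNA through a winged-helix domain, most often at the core TGTTTAC or a close variant. FoxO proteins are held in the cytoplasm by insulin and growth-factor signalling through Akt and act on stress and cell-cycle genes when that signal is low. FoxP proteins pair with one another through a leucine zipper and repress genes in neurons and other cells. Many of the remaining subclasses pattern the embryo, in mesenchyme, neural crest, endoderm or sense organs, and FoxJ1 drives motile cilia.

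Replicate 1 had 228203 usable peaks with a median signal of 44, and replicate 2 had 122593 with a median of 18, in an authors' signal whose definition is not given and which was not scaled between libraries. A signal is therefore also given as its percentile in its own library's list. Read depth is unknown. Of 12 midbrain and pan-neuronal markers, 10 had a shared promoter region, 83.3% (95% Wilson interval 55.2 to 95.3). The share of all protein-coding genes, 61%, lies inside that interval. Among the 10 were En1 (108 in replicate 1 and 36 in replicate 2) and En2 (112 and 52), whereas Pax7 and Tfap2b had no shared promoter region. No test between groups was possible with 1 group, so the main counts of members are given with 95% Wilson intervals, which cover counting error only, and beside the share of all protein-coding genes.

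Among the forkhead genes, 18 of 37 had a shared promoter region, 48.6% (33.4 to 64.1), against 61% of all protein-coding genes. The FoxO, FoxP, FoxJ, FoxK, FoxN and FoxM subclasses held most of them. Peaks stood at the promoters of 26 members in replicate 1, 70.3% (54.2 to 82.5), where 68.9% of all genes had one. In replicate 2 they stood at 19, 51.4% (35.9 to 66.6), where 62.6% of all genes had one. Thus the members' share was close to the background in replicate 1, whereas the replicate 2 share and the shared promoters lay below it, with the background inside each interval.

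The remaining 19 members were split by library. A promoter peak in replicate 1 alone was seen at 7, 18.9% (9.48 to 34.2), against 6.99% of all genes. With a 1000 bp window it was 5, 13.5% (5.91 to 28.0), against 7.11%. With the stronger 50% of peaks it was 4, 10.8% (4.29 to 24.7), against 4.996%. The background, below the interval at 500 bp, lies inside it under both of these settings. It stayed below the interval with a 100 bp window (6, 16.2%, 7.65 to 31.1, against 7.33%). The same held with both lists shortened by signal to equal length (5, 13.5%, 5.91 to 28.0, against 3.26%) and at the 5′ end alone (8, 21.6%, 11.4 to 37.2, against 6.99%). None had a peak in replicate 2 alone, a count of 0 of 37 with a Wilson upper limit of 9.41%, against 0.757% of all genes. Foxp3 had peaks of both libraries at separate places, a state of 0.843% of all genes. No promoter peak in either library was found at 11 members, 29.7% (17.5 to 45.8), a share near the 30.4% of all genes. Hotspots gave like totals, with both libraries at 20 promoters, 54.1% (38.4 to 69), against 62.1% of all genes, but not the same members. Foxo6 and Foxs1, with a promoter peak in replicate 1 alone, had promoter hotspots of both libraries (−log10 q of 100 and 100, and of 4.80 and 2.59). Foxp3 also had hotspots of both (100 and 100), whereas Foxp2, with a shared promoter region, had a promoter hotspot in replicate 1 alone. These counts take the hotspots of each library separately. With hotspots joined into union regions, as was done for peaks, Foxp2 had a shared one and the count was 21. Replicate 1 had a promoter hotspot at 26 members (69.1% of all genes) and replicate 2 at 20 (62.8% of all genes), and all 11 members without a promoter peak also lacked a promoter hotspot in both libraries.

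By subclass, FoxJ (3 of 3), FoxK (2 of 2) and FoxM (1 of 1) had a shared promoter region at every member. FoxN, FoxO and FoxP each had one at 3 of 4 members, lacking it at Foxn1, Foxo6 and Foxp3. FoxC, FoxD and FoxE had one each, at Foxc2, Foxd2 and Foxe1, out of 2, 4 and 2 members. FoxA, FoxB, FoxF, FoxH, FoxI, FoxL, FoxQ, FoxR and FoxS had none. Put together after these counts were seen, so that the split is fixed by the choice, FoxJ, K, M, N, O and P hold 15 shared promoters among 18 members, and the other 12 subclasses hold 3 among 19.

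**Figure D1:**
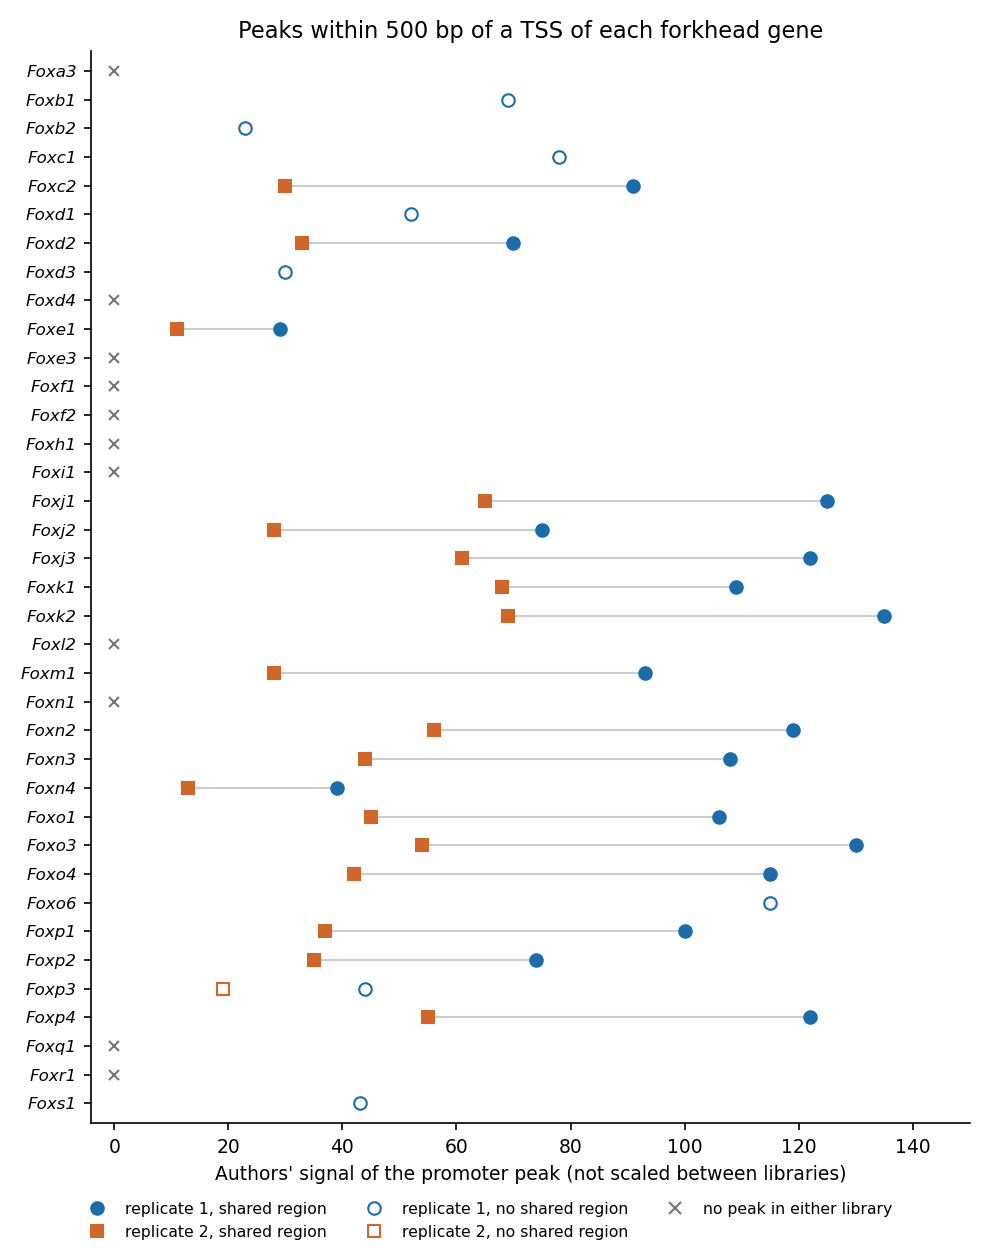
Authors' signal of the promoter peak of each forkhead gene, on an axis not scaled between libraries, for replicate 1 (blue circles) and replicate 2 (orange squares). Filled symbols joined by a line are the strongest shared region, open symbols are peaks in no shared region, and crosses mark the 11 genes without a promoter peak. Signals of shared promoters ran from 29 to 135 in replicate 1 and from 11 to 69 in replicate 2.

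The shared promoter regions of Foxo1, Foxo3 and Foxo4 ranked high among all peaks of both libraries. In replicate 2 each was below the median of 55 over all genes with a shared promoter. Foxo3, a stress-response factor of neurons and stem cells, had a shared region at chr10:42276696-42276865, 26 bp upstream of its TSS, with signals of 130 (98.4th percentile) and 54 (93.1st). Foxo1, a main effector of insulin signalling, had 106 and 45 over its TSS at chr3:52268256-52268445. Foxo4, the X-linked member, had 115 and 42 at chrX:101254056-101254205, which is 397 bp upstream. The FoxO gene best known from neurons, Foxo6, had a replicate 1 peak of 115 within 500 bp and no replicate 2 peak there. A shared region with signals of 120 and 61 lay at 662 bp upstream of the Foxo6 TSS, just past the window, so its separate state rests on the window's width.

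Foxo3 also had a second strong site, and its sequence and that of the Foxo6 site are printed because each is the strongest shared region near its gene. The Foxo3 site, 1046 bp upstream in intergenic sequence, reached 143 in replicate 1 (99.9th percentile) and 74 in replicate 2 (98.7th), above the promoter itself. The sequences are of mm10 from the RefSeq copy, plus strand, 5′ to 3′, with capitals at any match of the 11 motifs listed further on.
Foxo3 upstream site, chr10:42277716-42277885: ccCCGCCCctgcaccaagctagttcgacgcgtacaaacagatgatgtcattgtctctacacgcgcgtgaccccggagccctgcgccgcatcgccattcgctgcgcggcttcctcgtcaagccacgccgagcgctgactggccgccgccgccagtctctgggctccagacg
Foxo6 upstream site, chr4:120287916-120288105: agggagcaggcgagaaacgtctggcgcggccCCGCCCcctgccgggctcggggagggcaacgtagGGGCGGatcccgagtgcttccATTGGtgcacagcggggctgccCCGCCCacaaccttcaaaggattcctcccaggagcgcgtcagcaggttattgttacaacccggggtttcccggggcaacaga
The capitals mark 1 Sp match (GGGCGG or its reverse complement) in the Foxo3 site, and 3 Sp matches and 1 NFY match (CCAAT or its reverse complement) in the Foxo6 site.

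FoxP promoters followed. Foxp1, which acts in motor and striatal neurons, had 100 and 37 at its 5′ TSS (chr6:99522616-99522785) and a further shared region of 95 and 39 that lay 250 bp upstream. Foxp4 had 122 and 55 at chr17:47924716-47924865. Foxp2, known for its part in vocal and motor circuits, had a replicate 1 peak of 90 at its 5′ end with no replicate 2 peak. Its shared region, 74 and 35 at chr6:15197416-15197585, is an exonic site whose edge comes within 500 bp of an internal TSS located 296 kb into the gene. Foxp3, the factor of regulatory T cells, had a replicate 1 peak of 44 at 353 bp upstream and a replicate 2 peak of 19 at 387 bp downstream. A shared region of 123 and 56 lies 777 bp downstream of that TSS, at TSSs of the neighbouring Ppp1r3f and Flicr.

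The FoxJ and FoxK genes were open in both libraries. Foxj1, the driver of motile ciliogenesis, had 125 (97.7th percentile) and 65 (96.6th) at chr11:116335376-116335545. Foxj3 had 122 and 61 at a TSS 2.66 kb inside the gene (chr4:119539516-119539665), while Foxj2 had 75 and 28 at its 5′ end (chr6:122819776-122819965). Foxk1 and Foxk2 are repressors of autophagy and regulators of metabolism. Foxk2 had the highest promoter signal of all members, 135 and 69 (99.1st and 97.6th percentiles) at chr11:121259816-121260005, and Foxk1 had 109 and 68 at chr5:142401336-142401525. A further shared region of Foxj1, 432 bp upstream with 98 and 34, is printed as the one Foxj1 promoter site that lies away from the TSS itself.
Foxj1 upstream promoter site, chr11:116335756-116335905: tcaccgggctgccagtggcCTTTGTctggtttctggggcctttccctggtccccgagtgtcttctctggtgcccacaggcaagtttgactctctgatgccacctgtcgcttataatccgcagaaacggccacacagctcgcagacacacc
Capitals mark 1 match of the SOX core (ACAAAG or its reverse complement).

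FoxM and FoxN promoters spanned a wider range. Foxm1, which switches on mitotic genes in dividing cells, had 93 and 28 at chr6:128362816-128362965. A TSS of the neighbouring coding gene Rhno1 lies within 1000 bp of a Foxm1 TSS. Foxn2 had 119 and 56 at chr17:88440536-88440725, and Foxn3, a repressor tied to the cell-cycle checkpoint, had 108 and 44 at an internal TSS 171 kb into the gene (chr12:99393036-99393205). At the 5′ end of Foxn3 the shared region had 95 and 36. Foxn4, a factor of retinal and spinal progenitors, had 39 (40.8th percentile) and 13 (30.2nd) at chr5:114273756-114273925, far below the other members of its subclass with a shared region. Foxn1, the factor of thymic epithelium, had no promoter peak.

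Outside these subclasses, 3 genes had a shared promoter region. Foxc2, a factor of vessels and mesenchyme, had 91 and 30 at chr8:121116016-121116185. Foxd2 had 70 and 33 at chr4:114908916-114909085. Foxe1, the thyroid factor, had 29 (17.5th percentile) and 11 (22.1st) at chr4:46343036-46343285, the weakest of the 18. In hotspots, too, Foxe1 (−log10 q of 2.48 and 2.15) and Foxn4 (2.91 and 2.19) were weak. By contrast, 13 members, Foxo6 and Foxp3 among them, reached 100, the strongest class, in both libraries. The promoter peaks of Foxp3 were only 44 and 19. Its hotspots were not separated from the shared region of 123 and 56 at TSSs of Ppp1r3f and Flicr.

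The 7 members with a replicate 1 promoter peak alone had signals from 23 to 115, with a median of 52. Besides Foxo6, they were Foxc1 with 78 (meninges and vessels), Foxb1 with 69 (diencephalic development), Foxd1 with 52 (stromal and mural precursors), Foxs1 with 43 (pericytes and sensory ganglia), Foxd3 with 30 (neural crest) and Foxb2 with 23. The highest of them, Foxo6, was above the median of 107 at the shared member promoters, and the lowest, Foxb2, was at the 5.54th percentile of its list. Over all genes, 1534 had a promoter peak in replicate 1 alone, with a median of 41. Foxs1 had a shared region of 48 and 18 at 593 bp upstream, and Foxb1 had a replicate 2 peak of 9 at 631 bp upstream, so that 3 of these 7 had a replicate 2 peak just outside the window.

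No promoter peak was found in either library at Foxa3 (endoderm and liver), Foxd4, Foxe3 (lens), Foxf1 and Foxf2 (mesenchyme, with Foxf2 known in brain pericytes), Foxh1 (Nodal signalling), Foxi1 (inner ear and kidney), Foxl2 (ovary and eyelid), Foxn1, Foxq1 (stomach and hair) and Foxr1. Near Foxa3, a shared region of 137 and 69 stood 773 bp upstream, at the TSS of Sympk. Near Foxf1, a replicate 1 peak of 48 stood 715 bp upstream.

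**Figure D2:**
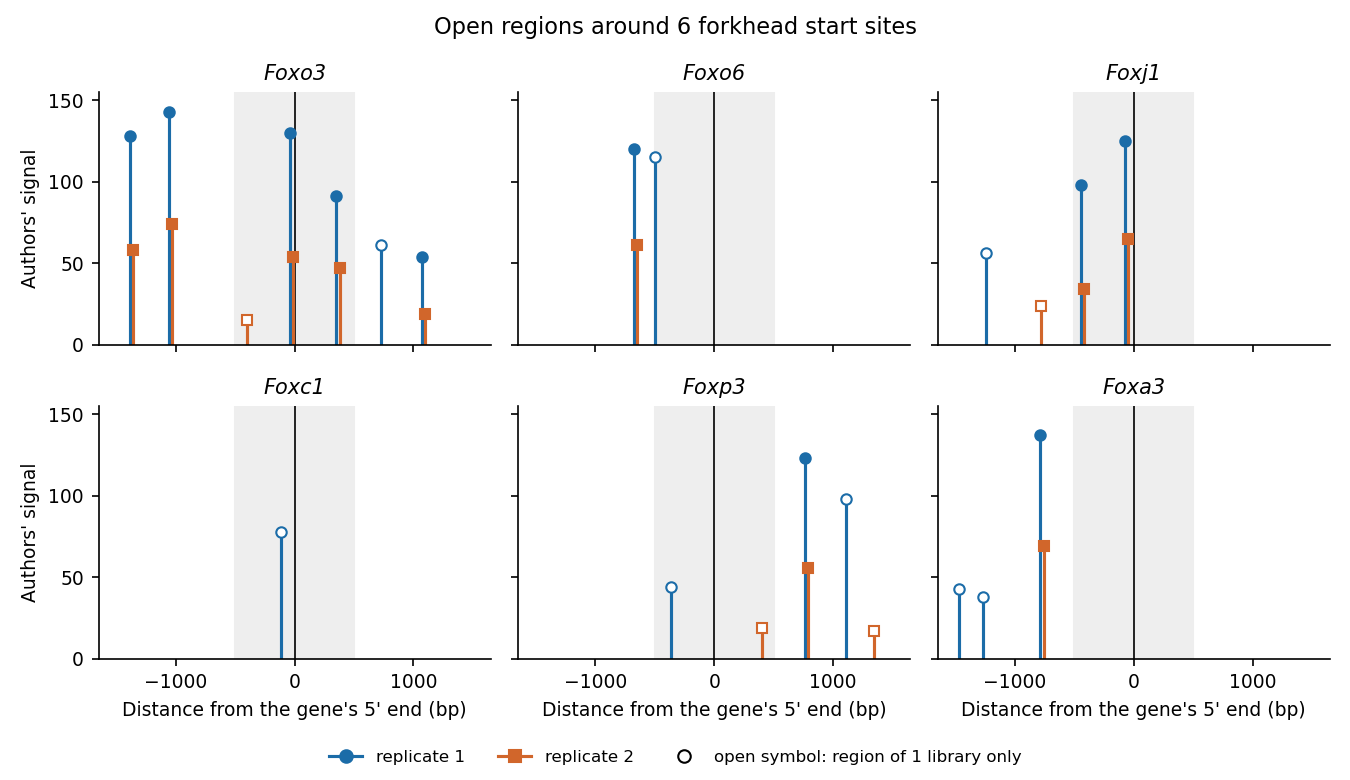
Authors' signal of the regions about the 5′ end of 6 forkhead genes, by distance in bp in the direction of transcription, with the 500 bp window in grey. Blue circles are replicate 1, orange squares replicate 2 and open symbols regions of 1 library. Foxo3 and Foxj1 have shared regions inside the window, Foxo6 (120 and 61), Foxp3 (123 and 56) and Foxa3 (137 and 69) have one outside it, and Foxc1 has a replicate 1 region of 78.

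Several of these genes are known from cell types that are minor in midbrain, and the markers of those types were read in the same way, beside the 61% of all genes with a shared promoter region. Pericyte and mural markers had a shared promoter region at 3 of 10 genes (30%, 10.8 to 60.3), with a replicate 1 peak at 8 and a replicate 2 peak at 4, and none in either library at Anpep and Tagln. Endothelial markers had 4 of 10 (40%, 16.8 to 68.7, with peaks at 7 and 4, none at Cdh5, Pecam1 and Tie1), and meningeal and fibroblast markers had 3 of 10 (7 and 4, the interval as for pericytes, none at Col3a1, Lum and Twist1). Ependymal and choroid plexus markers had 4 of 10 (7 and 4, the interval as for endothelium, none at Ccdc153, Tmem212 and Ttr), one of them Otx2, which is also a midbrain marker. Neural crest and Schwann markers had 7 of 10 (70%, 39.7 to 89.2, with peaks at 9 and 7), and lymphocyte markers had 3 of 10 (4 and 3, with none at Cd3e, Cd3g, Cd4, Cd8a and Ctla4 among others). The part of these cell types in the members' states was not tested.

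Across the 18 shared promoters the libraries ranked members alike, with Spearman's rho of 0.885 and Pearson's r of 0.898, given as a description over genes of the same 2 libraries. The median signal was 107 in replicate 1 and 43 in replicate 2, at the 94.5th and 87.4th percentiles of the lists. Over all genes with a shared promoter the medians were 119 and 55, at the 96.7th and 93.4th percentiles, so the typical forkhead promoter ranked lower, more so in replicate 2.

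Many members have several TSSs, and these did not share one state. Of 134 distinct TSSs, 54 had a shared region within 500 bp, 20 a replicate 1 peak alone, 1 peaks of both libraries apart and 59 no peak. Foxp1, with 22 TSSs, had 6 shared, 7 in replicate 1 alone and 9 without a peak. Foxp2, with 16, had 3, 5 and 8 in the same order, and Foxn3, with 14, had 6, 0 and 8. Foxj3 had 8 shared of 10 and Foxp4 6 of 8, but Foxm1 had 1 of 7. TSSs within 500 bp of each other can draw on the same region, so they are not separate observations.

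Promoter sequence composition differed among the states. CpG dinucleotides are rare in mouse DNA except in CpG islands, which cover many promoters, and the ratio of observed to expected CpG in the 1000 bp about a TSS (the highest over a gene's TSSs) measures them. The members' median was 0.794, against 0.627 for all protein-coding genes. It was 0.889 for members with a shared promoter region, 0.760 for those with a replicate 1 peak alone and 0.596 for those without a peak.

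Among CpG-rich promoters, a shared region was less frequent in the forkhead genes than in all genes. In deciles 7 to 10 of all genes by CpG ratio, 15 of 24 members had a shared promoter region, 62.5% (42.7 to 78.8), where 8288 of 8775 genes did, 94.5%. Of those 24 members, 5 had a replicate 1 peak alone (Foxb1, Foxc1, Foxd1, Foxd3 and Foxo6), 20.8% against 2.92% of all genes. Another 4 had no peak, 16.7% against 1.70%: Foxe3 with a ratio of 0.772, Foxf1 with 0.849, Foxf2 with 0.856 and Foxl2 with 0.763. In deciles 1 to 6, 3 of 13 members had a shared region, 23.1% (8.18 to 50.3), against 38.8% of all genes, which lies inside the interval. The split into deciles 7 to 10 was made after the values were seen.

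Gene structure ran alongside. Among the 12 members with a single exon, 3 had a shared promoter region (Foxc2, Foxd2 and Foxe1), 5 had a replicate 1 peak alone and 4 had none. The 25% (8.89 to 53.2) with a shared region was near the 26.6% of all single-exon genes, and the 60% (40.7 to 76.6) of members with several exons was near the 63.2% of all such genes. Within CpG deciles 7 to 10, the share was 2 of 7 for single-exon members, 28.6% (8.22 to 64.1), against 84.1% of the 270 single-exon genes there. For members with several exons it was 13 of 17, 76.5% (52.7 to 90.4), against 94.8%.

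**Figure D3:**
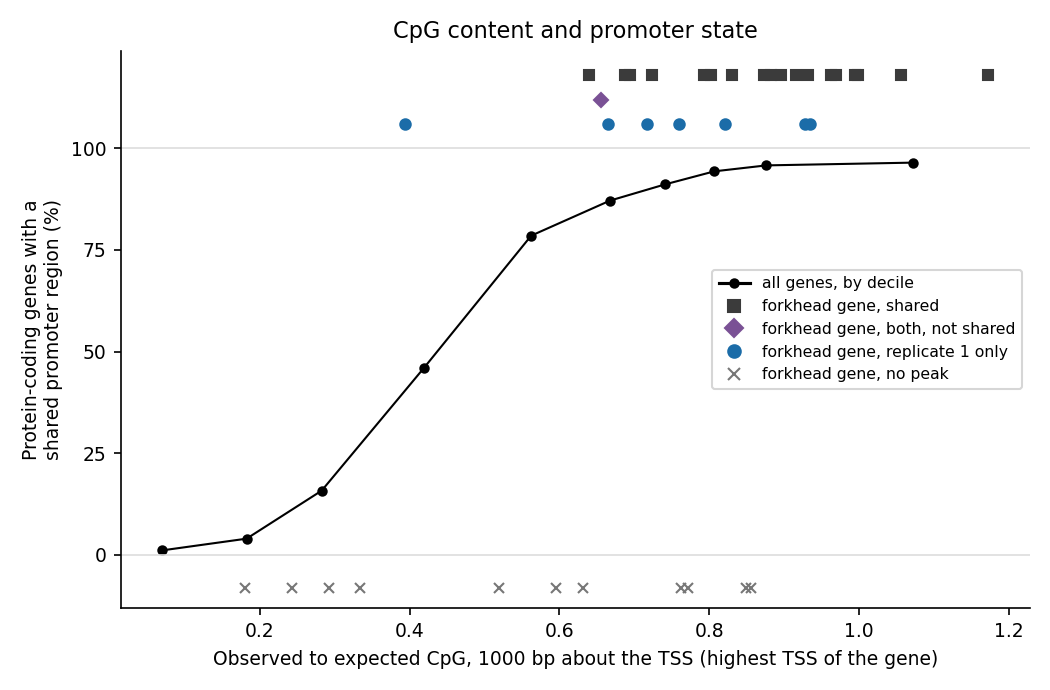
Line: share of all protein-coding genes with a shared promoter region (%) in each decile of the observed to expected CpG ratio. The symbols above and below the line's range place each forkhead gene on the ratio axis by its promoter state, with no value on the vertical axis, and 4 crosses (Foxe3, Foxf1, Foxf2 and Foxl2) lie between 0.763 and 0.856.

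Around the genes, 33 of 37 members had at least 1 shared region in their domain, 89.2% (75.3 to 95.7), against 78.7% of all genes. The members without one were Foxb2, Foxd3, Foxd4 and Foxr1, and Foxr1, whose function is little known, had no peak of either library in its whole domain. At least 1 distal shared region, whose midpoint is over 500 bp from any TSS of any gene, was found at 28 members, 75.7% (59.9 to 86.6), against 63.4%. Thus 9 members had no distal shared region. Since promoter regions of a member are taken by their edge and distal ones by their midpoint, the exonic Foxp2 region counts as both.

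The domains together held 486 union regions, of which 118 were shared (24.3%, against 28.7% of the 260777 regions of the genome), 283 were of replicate 1 alone (58.2%, against 56.7%) and 85 of replicate 2 alone (17.5%, against 14.6%). Shared regions had median signals of 78 and 29.5, and regions of a single library were weaker, with medians of 41 in replicate 1 and 12 in replicate 2. Of the 118, 49 were at promoters (41.5%, against 29.8% of shared regions genome-wide), 10 in exons, 43 in introns (36.4%, against 34.3%) and 16 in intergenic sequence (13.6%, against 30.6%). Domains consist of genes and short flanks by construction, so intergenic sequence is scarce in them. Per 100 kb, the median member had 4.46 shared regions and the median gene 4.99. The members' domains were shorter, with a median of 26.3 kb against 37.4 kb.

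**Figure D4:**
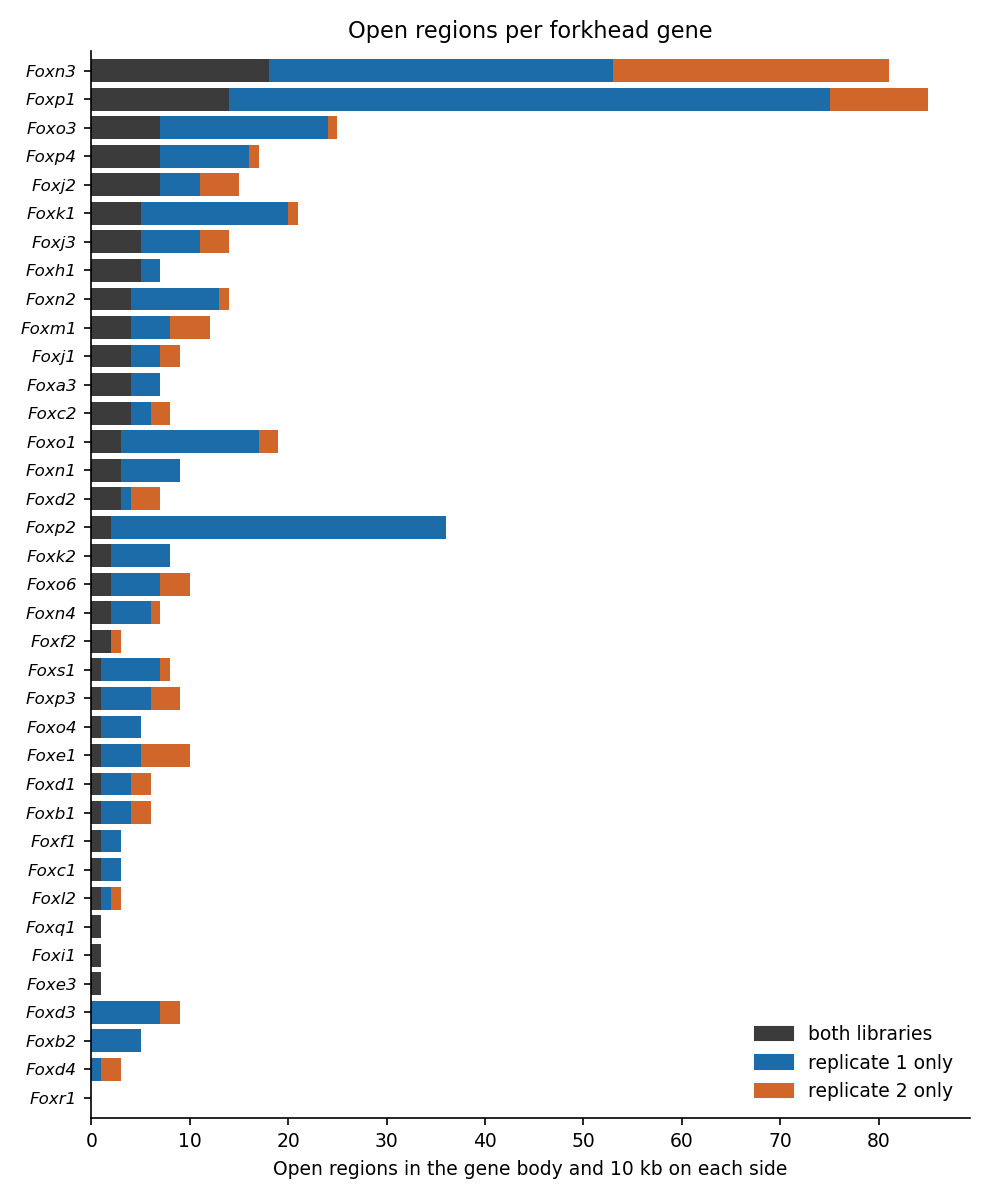
Number of union regions in the domain of each forkhead gene, ordered by its shared regions (black), with regions of replicate 1 alone in blue and of replicate 2 alone in orange. Foxn3 and Foxp1 lead with 18 and 14 shared regions, Foxp2 has a long blue bar and no orange one, and Foxr1 has no region.

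Some of those regions belong to neighbours. Of the 49 promoter regions, 32 were at a member's own TSS and 17 at TSSs of other genes. Foxh1 had the densest domain, 23.0 shared regions per 100 kb, yet 4 of its 5 regions stood at TSSs of Cyhr1, Kifc2 and Ppp1r16a, and its own promoter had no peak. Foxc2 followed with 17.6, Foxj1 with 16.2 and Foxj2 with 15.4. Of these, Foxc2 had 1 of its 4 shared regions at a TSS of Mthfsd and Foxj2 2 of its 7 at TSSs of Gm5112. Foxj1 had none at the TSS of another gene. Foxd2 and Foxe3, 16273 bp apart on chromosome 4, have overlapping domains and share 1 region. Foxc2 and Foxf1 lie 28.0 kb apart on chromosome 8. On chromosome 13, Foxq1 and Foxf2 lie 64.8 kb apart and Foxf2 and Foxc1 175 kb. Among the 5 listed members in these 2 clusters Foxc2 alone had a shared promoter region. Foxl1, which also lies in the Foxc2 domain, was not analysed.

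A few genes held much of the total. Foxn3 had 18 shared regions (15 distal), Foxp1 14 (9 distal), and Foxj2, Foxo3 and Foxp4 had 7 each (2, 5 and 4 distal). Together these 5 held 53, or 44.9% of the 118.

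In Foxn3 the highest-ranked distal regions were intronic: 126 and 66 at 171 kb from the 5′ end (chr12:99392056-99392225), 135 and 55 at 223 kb (chr12:99340036-99340205) and 102 and 28 at 343 kb (chr12:99220396-99220625). The first lies 931 bp downstream of an internal TSS and had higher signals than the promoter regions of Foxn3 named above. In Foxp1 they were 93 and 27 at 36.8 kb (chr6:99485876-99486045), 83 and 21 at 650 bp upstream (chr6:99523276-99523465) and 65 and 25 at 82.6 kb (chr6:99440056-99440225), all below the Foxp1 promoter. In Foxp4 they were 88 and 44 at 51.0 kb, 89 and 41 at 60.0 kb, past the 3′ end of the gene, and 90 and 38 at 51.2 kb. The first and the third of the Foxp4 sites are neighbours in an intron (chr17:47873336-47873505 and chr17:47873556-47873725). Foxo3 had, after the upstream site printed above, 128 and 58 at 1376 bp upstream and 54 and 19 in an intron, 1025 bp downstream of a TSS. Foxj2 had 2 distal regions, 90 and 40 in an exon on the side of Gm5112, 7.97 kb upstream, and 28 and 16 in an intron.

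The Foxn3 site at 171 kb is printed as the highest-ranked intronic region of the family by mean percentile in both libraries.
Foxn3 intronic site, chr12:99392056-99392225: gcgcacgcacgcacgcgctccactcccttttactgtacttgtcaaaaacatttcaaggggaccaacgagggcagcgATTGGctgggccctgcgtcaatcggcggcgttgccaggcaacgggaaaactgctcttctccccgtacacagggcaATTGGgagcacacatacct
Capitals mark 2 NFY matches.

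Peak by peak, replicate 1 had 408 peaks in the domains and replicate 2 had 220, a ratio of 1.85 that was close to the 1.86 of the whole lists. Of the replicate 1 peaks, 29.2% (25.0 to 33.8) overlapped a replicate 2 peak, against 33.5% genome-wide, and of the replicate 2 peaks, 55.5% (48.8 to 61.9) overlapped one of replicate 1, against 64.6%. With both lists shortened by signal to equal length, the counts were 242 and 220, a ratio of 1.1, and the shares 42.6% and 48.2%, against 53.4% and 55.4%. With the stronger 50% of each list, the shares were 40.8% (34.5 to 47.5) against 44.7% and 78.8% (70.3 to 85.3) against 84.0%, with the genome value inside both intervals. These intervals treat peaks as independent, although a few long genes held many of them. Foxp1, Foxp2 and Foxn3 had 77, 36 and 54 of the 408 replicate 1 peaks, and Foxp1 and Foxn3 had 26 and 49 of the 220 of replicate 2. The shares in forkhead domains, taken over all peaks, were below the genome values under all 3 settings. The genome value was inside the interval in the last and for the replicate 1 peaks of the full lists.

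The 3 longest members differed in this balance, a comparison chosen after the values were seen. Foxp2 had 36 peaks in replicate 1 and 2 in replicate 2, an 18-fold difference, and 16 against 2 with lists of equal length. Foxp1 had 77 and 26 (35 and 26 at equal length), and Foxn3 had 54 and 49 (40 and 49). Of 943 genes with 30 or more replicate 1 peaks in their domain, 2, counting Foxp2, had so low a share of replicate 2 peaks, or 0.212%. For Foxp1 26.6% of those genes were as low or lower, and for Foxn3 95.3%. The 943 were picked by a high replicate 1 count, which itself favours a high ratio. Their median ratio was 2.29, against 1.86 for the whole lists, so these shares describe that set only.

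The counts around Foxp2 were read in the 2 Mb bin that holds its domain, from 14 to 16 Mb of chromosome 6. Replicate 1 had 87 peaks there and replicate 2 had 18, or 20.7 per 100, where the median bin had 49.7. Of 1177 bins with a minimum of 50 replicate 1 peaks, 34 were as low or lower, 2.89%. Outside the Foxp2 domain the same bin had 51 and 16, or 31.4 per 100, and 131 bins were as low or lower, 11.1%. The bin's GC content was 37.6%, against a median of 41.8%, and over bins the share of replicate 2 peaks and GC content had a Spearman's rho of 0.399, given as a description. Domain GC was 36.6% at Foxp2, 44.4% at Foxp1 and 46.6% at Foxn3, and the part of base composition in the imbalance was not tested. In Foxn3, 10 replicate 2 peaks stood in an adjacent row 247 kb from the 5′ end, with signals from 1 to 8 and a median of 4.5, and 0 of them overlapped a replicate 1 peak. These 10 are among its 49 replicate 2 peaks. Foxp1 had replicate 2 peaks with signals from 3 to 6 between 245 and 250 kb from its 5′ end. Shortening to equal length left the replicate 2 list whole, so both balances include such weak peaks.

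**Figure D5:**
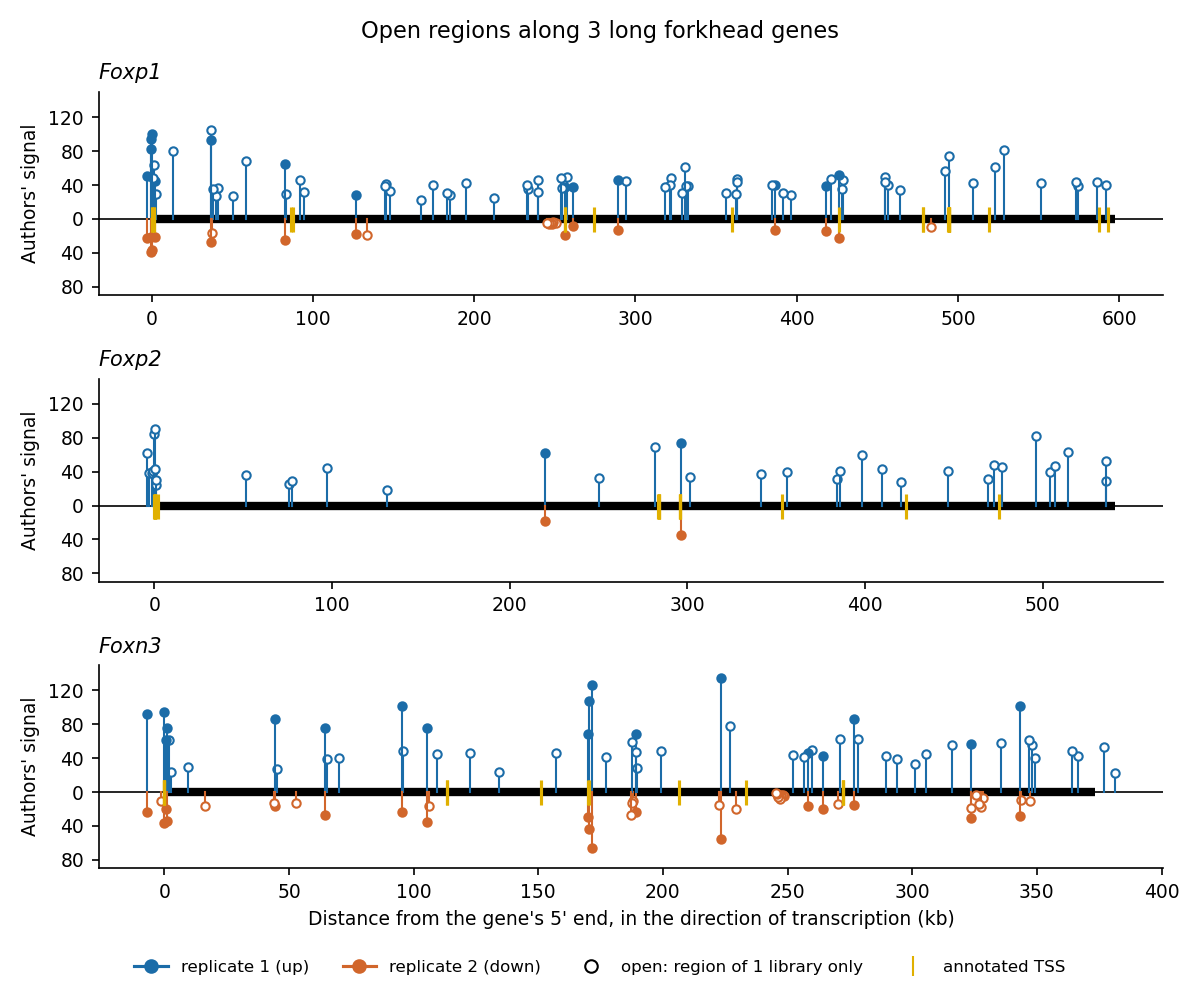
Union regions along Foxp1, Foxp2 and Foxn3 by distance from the 5′ end in kb, with the authors' signal of replicate 1 drawn upward in blue and of replicate 2 downward in orange. Open symbols are regions of 1 library, the black bar is the gene and yellow ticks are TSSs. In Foxp2 the 2 replicate 2 peaks both lie in shared regions, whereas replicate 2 peaks are spread along Foxn3.

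The 11 motifs were searched on both strands in a 150 bp window centred on each shared region. They were the forkhead cores TGTTTAC and TATTTAC, the Sp motif GGGCGG, the ETS motif CCGGAA, the NRF1 motif GCGCATGC and the NFY motif CCAAT. The others were the CRE motif TGACGTCA, the E-box CAGCTG, the SOX core ACAAAG, the homeodomain core TAATTA and the RFX motif. TGTTTAC was present in 3 of the members' 49 promoter regions, 6.12%, against 1.25% of all shared promoter regions, and in 2 of 69 distal regions, 2.90% against 1.85%. TATTTAC was in 0 of the 49, against 0.542%, and in 1 of the 69, 1.45% against 1.20%. The promoter regions with TGTTTAC were those of Foxp1, Foxo4 and Foxp4, and the distal ones were introns of Foxn3 and Foxk1. These small counts are a description, and a match is not evidence of binding. At promoters Sp was found in 20 (40.8%, against 42.7%), NFY in 12 (24.5%, against 24.2%), ETS in 7 (14.3%, against 14.5%) and SOX in 4 (8.16%, against 7.43%). In distal regions Sp was found in 8 (11.6%, against 6.97%), NFY in 16 (23.2%, against 19.5%), SOX in 8 (11.6%, against 13.5%) and the E-box in 6 (8.70%, against 14.1%).

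The sequences of 4 regions with TGTTTAC are printed so that the core can be seen in its place, with capitals as above.
Foxp1 promoter, chr6:99522896-99523045: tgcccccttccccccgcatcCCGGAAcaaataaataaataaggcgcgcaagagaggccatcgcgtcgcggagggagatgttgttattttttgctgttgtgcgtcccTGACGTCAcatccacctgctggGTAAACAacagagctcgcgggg
Foxo4 promoter, chrX:101254056-101254205: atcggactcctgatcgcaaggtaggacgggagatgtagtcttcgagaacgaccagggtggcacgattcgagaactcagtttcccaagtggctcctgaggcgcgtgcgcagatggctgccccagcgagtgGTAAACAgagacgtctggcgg
Foxn3 intron, 343 kb from the 5′ end, chr12:99220396-99220625: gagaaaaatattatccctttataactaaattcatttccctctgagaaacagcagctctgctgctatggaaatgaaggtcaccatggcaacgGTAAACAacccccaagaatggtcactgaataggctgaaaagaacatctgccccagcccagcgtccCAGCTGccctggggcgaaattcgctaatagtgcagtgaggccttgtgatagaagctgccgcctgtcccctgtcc
Foxk1 intron, 39.1 kb from the 5′ end, chr5:142440476-142440665: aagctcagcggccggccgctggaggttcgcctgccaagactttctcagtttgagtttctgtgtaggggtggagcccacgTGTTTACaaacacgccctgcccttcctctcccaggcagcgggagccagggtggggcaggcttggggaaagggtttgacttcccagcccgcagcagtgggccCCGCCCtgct
On the plus strand the core reads GTAAACA in the first 3 regions and TGTTTAC in the fourth. The Foxp1 region further has 1 ETS and 1 CRE match, the Foxn3 intron 1 E-box and the Foxk1 intron 1 Sp match. Their signals were 95 and 39 for Foxp1, 115 and 42 for Foxo4, 102 and 28 for Foxn3 and 98 and 28 for Foxk1.

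Genes that act with the forkhead factors were read from lists of their pathways. Upstream of FoxO, all 18 genes of a list of insulin, PI3K and Akt signalling and of enzymes that modify FoxO proteins had a shared promoter region, among them Akt1 (62 and 19) and Akt2 (134 and 59). Of 16 FoxO target genes, 13 had one, including Bcl2l11 (117 and 47) and Bcl6 (117 and 57), whereas G6pc and Pck1, enzymes of gluconeogenesis, had no promoter peak and Trim63, a muscle ubiquitin ligase, had a replicate 1 peak of 33. Of 12 FoxP partners and targets, 8 had one, including the adhesion gene Cntnap2 (110 and 53) and the corepressor Ctbp1 (128 and 64). The forebrain gene Nkx2-1 had no promoter peak.

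Of 15 matched genes of the FoxJ1 and motile cilium programme, 12 had a shared promoter region and all 15 had a replicate 1 peak. Ccdc39 (104 and 46) and Ccdc40 (111 and 45), which set the spacing of the ciliary axoneme, were among the 12, and Dnah5 (47) and Mcidas (39) had a peak in replicate 1 alone. All 14 FoxM1 and mitotic genes had one, including Aurka (133 and 65) and Aurkb (118 and 53). Of 12 genes of FoxH1 and Nodal signalling, 7 had one, including the receptors Acvr1b (128 and 66) and Acvr2a (122 and 58), whereas Gdf1 had no promoter peak and Lefty1 had 42 in replicate 1 alone. Nodal and Tdgf1 also lacked a shared promoter region, as did Foxh1 itself, while the ligand gene Lefty2 had a weak one (30 and 12). These counts stand beside the 61% of all genes and carry no test. They are not matched for CpG content, and 94.5% of all genes in CpG deciles 7 to 10 had a shared promoter region.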

How the data were processed

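DNase-seq peaks and hotspots of 2 midbrain libraries on mm10 were used. Each list came from the filtered alignment of 1 biological replicate, per the labels and deposited text. The aligner and the caller are not named in the sources used here. Peaks are 150 bp wide and carry a signal deposited by the authors, used within a list only. Hotspots carry a −log10 q value deposited by the authors, at most 100, and a display score, also deposited, that was not used in any result. Peaks off chromosomes 1 to 19, X and Y (215 and 221) and repeated positions (22 and 24) were set aside. Overlap meant at least 1 bp or touching.

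Scripts in Python 3.11.15 with numpy 2.4.6, scipy 1.17.1 and matplotlib 3.10.9 used GENCODE M21 gene models and the RefSeq copy of the assembly, and the overlap code was tested on simulated data. No between-group test was made. The members and lists were chosen with earlier results of these data known. Of the pathway genes, Dnai1 and Dnai2 were not matched by symbol.

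Every member is named. In domains, the 5 members with most shared regions are named with the 3 distal shared regions of highest mean percentile, and from each pathway list the first 2 genes by symbol with and without a shared promoter region. Some list genes that this rule or a count would name are not reported here. Genes named beyond these were chosen after their values were seen. Alternatives were the promoter window, list length and strength, TSS choice, overlap rule, hotspots, flanks and leaving out each library.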

Additional observations from a re-analysis of the deposited data

How the results depend on the processing

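The count of members with a shared promoter region, 18, was 15 with a window of 100 bp and 22 with 1000 bp, 16 under equal-length lists, the stronger 50% of peaks or the 5′ end alone, 17 under reciprocal overlap, 21 with hotspots, and 19 to 26 when replicate 1 or replicate 2 was left out, where a peak of the other library counts. At 1000 bp Foxa3, Foxo6, Foxp3 and Foxs1 joined. The region gained by Foxa3 stood at the TSS of Sympk, and that gained by Foxp3 at TSSs of Ppp1r3f and Flicr. Members with a replicate 1 peak alone were 7, and 4 with the stronger 50% of peaks, 5 with a 1000 bp window or equal-length lists, 6 at 100 bp and 8 at the 5′ end alone. Shared regions in domains, 118, were 62 with no flanks and 296 with 50 kb flanks, and distal ones, 69, were 37 and 179. Leaving out each library gave 220 to 408 regions and 158 to 323 distal ones, because any peak of the other library then counts. Replicate 1 peaks in domains, 408, were 242 with equal-length lists, 806 with 50 kb flanks and 218 with the stronger 50%. Replicate 2 peaks, 220, were 494 with 50 kb flanks and 113 with the stronger 50%. The ratio of 1.85 became 1.1 with equal-length lists, since both lists then have the same size. No paired analysis was possible because there is 1 group, with no second group to pair. Read depth is unknown, so a missing peak in replicate 2, the shorter list, is not shown to be a closed site.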
